A study of Rattus norvegicus with 30 samples.

Results

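Gapdh, Actb and Eef1a1 are common reference genes: they are often used to set the scale of quantitative PCR on the premise that their level is the same in all samples compared. Their rows were taken by gene identifier from the count table (ENSRNOG00000018630 for Gapdh, ENSRNOG00000034254 for Actb and ENSRNOG00000009439 for Eef1a1). All 3 were found among 32545 genes listed, and all 3 were among the 16015 genes with enough counts to be tested. The question put to each gene was whether its level held across delayed repair, immediate repair and healthy nerve.

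The study sequenced RNA from the median nerve, a nerve of the forelimb, of adult female wild-type rats. In both repairs the cut nerve had a gap of 8 mm, bridged by a 10 mm conduit of chitosan, a sugar polymer made from chitin, and the tissue sequenced was what had grown inside the conduit. Delayed repair, done 3 months after the injury, gave 5 libraries at day 7, 4 at day 14 and 3 at day 21 after repair. Immediate repair, done at the time of injury, gave 4 libraries at day 7, 4 at day 14 and 5 at day 21, and the controls were 5 healthy nerves with no injury. Nothing in the labels ties each library to an animal of its own, and p-values therefore measure the spread between these libraries. The repair tissue had formed inside the conduit and the control was intact nerve, so the mix of cells may differ between them, and that mix was not measured here.

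Gapdh encodes glyceraldehyde-3-phosphate dehydrogenase, an enzyme of glycolysis, the pathway that breaks down glucose in the cytosol. Actb encodes beta-actin, a subunit of the actin filaments that shape and move cells, and is abundant in migrating and dividing cells. Eef1a1 encodes the elongation factor that brings aminoacyl-tRNA to the ribosome during protein synthesis. After a nerve is cut, Schwann cells, macrophages, fibroblasts and endothelial cells populate the tissue that bridges the gap, and axons grow through it afterwards.

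Promoter sequences were looked up for all 3 genes. RefSeq sequence of the rat assembly GRCr8 was matched for 2 of the 3 genes, Gapdh and Eef1a1. Each run holds the 250 bases before the annotated start of the gene, 5′ to 3′ on the gene's strand, which is the minus strand for both. Capitals mark matches on either strand to ACGTG and GCGTG, the core letters of the hypoxia response element known from mammals, and to TATAA, the core of the TATA box, and no matches overlap.
Gapdh, chr4:159652468-159652717: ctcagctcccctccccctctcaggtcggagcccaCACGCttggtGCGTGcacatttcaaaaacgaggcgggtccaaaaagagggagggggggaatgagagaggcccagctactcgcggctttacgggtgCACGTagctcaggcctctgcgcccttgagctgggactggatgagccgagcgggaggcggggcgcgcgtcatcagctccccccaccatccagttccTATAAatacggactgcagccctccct
Eef1a1, chr8:88225070-88225319: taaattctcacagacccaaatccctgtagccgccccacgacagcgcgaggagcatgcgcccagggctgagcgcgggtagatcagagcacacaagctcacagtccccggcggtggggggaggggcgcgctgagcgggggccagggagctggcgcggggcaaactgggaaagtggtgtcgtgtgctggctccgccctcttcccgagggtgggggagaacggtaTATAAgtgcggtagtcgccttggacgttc

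The Gapdh window held 1 match to ACGTG, 2 matches to GCGTG and 1 match to TATAA, the last beginning 26 bases before the start. The Eef1a1 window held 1 match to TATAA, beginning 29 bases before the start, and the letters ACGTG and GCGTG were not in it. Among 33465 rat promoters of the same length, 16.6% held ACGTG, 25.9% held GCGTG, 36.7% held one or the other and 24% held TATAA. A match describes the letters and does not show that a factor binds there.

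All 3 genes were deeply counted in every library, so counting error had little part in what follows. Library totals ran between 11958242 and 17334752 counts with a median of 14858868.5. Gapdh took between 5088 and 57266 counts per library (0.0371% to 0.427% of the total), Actb between 25593 and 92150 (0.188% to 0.613%), and Eef1a1 between 54811 and 134952 (0.434% to 0.904%). The counting error of a single value was at most 1.40% for Gapdh, 0.625% for Actb and 0.427% for Eef1a1, which covers counting error only. Reads from near-identical pseudogenes or family members, and from genes that overlap on the other strand, cannot be told apart here, because the libraries carry no strand and the handling of shared reads is not given. Values below are CPM, the usual rescaling of counts to library size, on library sizes scaled by the trimmed mean of M-values (TMM). Replicates were not equally alike: the SD over genes of the log2 CPM difference between a library and the mean of the others in its group ran between 0.461 and 1.39. It was highest in delayed day 7 replicate 5 (1.39), immediate day 7 replicate 4 (1.32), delayed day 7 replicate 1 (1.16) and immediate day 21 replicate 4 (1.10). CPM is not corrected for gene length, so levels are compared between samples and not between genes.

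The 3 genes did not hold their levels alike. Gapdh spanned 15.0-fold between its lowest and highest library and 5.89-fold between group means, Actb 3.09-fold and 2.51-fold, and Eef1a1 2.36-fold and 1.49-fold. In a test of any difference among the 7 groups with edgeR's quasi-likelihood F test, the adjusted p was 3.49e-08 for Gapdh (F of 23.4), 5.22e-06 for Actb (F of 12.9) and 0.0496 for Eef1a1 (F of 2.70). The same test called 73.2% of all genes tested, so a call by itself does not set the 3 genes apart. The Eef1a1 call lay at the threshold and was lost in 22 of 30 fits that left out 1 library each.

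**Figure D1:**
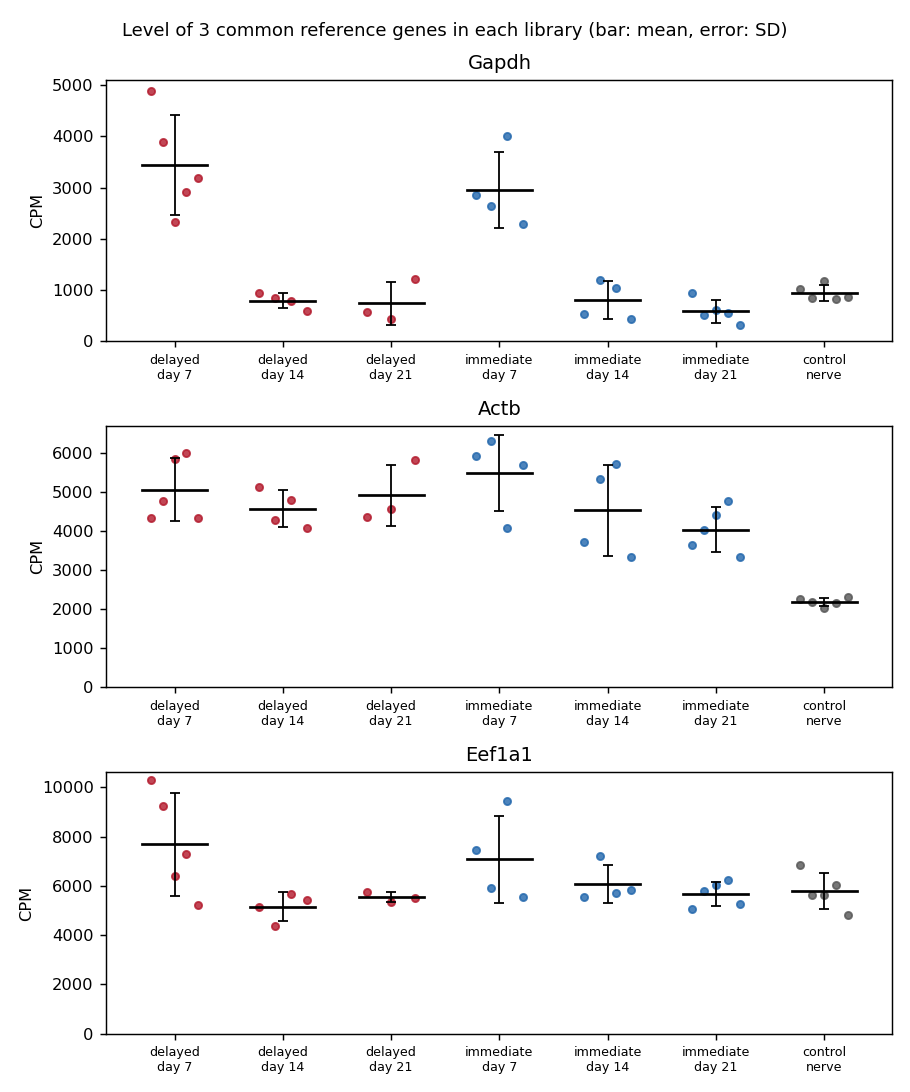
CPM of Gapdh, Actb and Eef1a1 (vertical axes, each starting at 0) in every library of the 7 groups, with a point per library, a bar for the group mean and an error bar for the SD. All 9 day 7 libraries stand above the control libraries for Gapdh and all 25 repair libraries stand above them for Actb, while Eef1a1 overlaps the control libraries in every group. In single repair groups, 20.4% to 26.6% of all genes were higher than control nerve with no overlap.

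Gapdh was high at day 7 after either repair and at or below the level of healthy nerve afterwards. In delayed repair at day 7 it stood at 4876, 3897, 2337, 2918 and 3189 CPM, and in immediate repair at day 7 at 2855, 2644, 4003 and 2285 CPM, against 1022, 835, 1174, 821 and 864 CPM in control nerve. Every one of the 9 day 7 libraries was above every control library, and the repairs overlapped each other. Among all genes, 22.1% in delayed and 24.3% in immediate repair at day 7 were higher than control nerve with no overlap.

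By day 14 Gapdh was at 933, 841, 788 and 589 CPM in delayed repair and at 540, 1196, 1049 and 433 CPM in immediate repair. At day 21 it was at 568, 430 and 1222 CPM in delayed repair and at 933, 509, 605, 549 and 325 CPM in immediate repair. Of the 8 libraries of day 14, 1 lay above all control libraries and 4 lay below all of them, and of the 8 libraries of day 21, 1 lay above and 6 below. Delayed day 21 replicate 3 and immediate day 21 replicate 1 were the high libraries of their groups.

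Group means of Gapdh, with SD, were 3443 ± 978 CPM in delayed repair at day 7 (n = 5), 788 ± 145 at day 14 (n = 4) and 740 ± 423 at day 21 (n = 3). In immediate repair they were 2947 ± 742 CPM at day 7 (n = 4), 804 ± 375 at day 14 (n = 4) and 584 ± 221 at day 21 (n = 5), and in control nerve 943 ± 152 CPM (n = 5). Ordered by mean, delayed day 7 stood first and immediate day 7 next, then control nerve, immediate day 14, delayed day 14, delayed day 21 and immediate day 21. Only the step between immediate day 7 and control nerve had neighbours whose libraries did not overlap, and the groups below that step overlapped their neighbours.

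Against control nerve, Gapdh was 3.65-fold higher in delayed repair at day 7 (log2 fold change 1.87, SE 0.31, adjusted p = 1.01e-05 with edgeR) and 3.12-fold higher in immediate repair at day 7 (1.64, SE 0.32, adjusted p = 7.47e-05). The log2 intervals at 95% ran between 1.23 and 2.50 for delayed repair and between 0.99 and 2.30 for immediate repair. Among all genes tested, 31.5% were called higher in delayed repair at day 7 and 30.2% in immediate repair at day 7. The Gapdh fold change was above that of 86.1% and 85.0% of all genes. Both calls held in every other fit run on the whole library scale, with estimates of 1.71 to 1.98 for delayed and 1.46 to 1.75 for immediate repair. On a library scale set by Actb the immediate repair value was 0.40 and was not called. In bulk tissue, a change in which cells are present and a change in the RNA of each cell cannot be told apart.

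At later days edgeR did not call Gapdh against control nerve. The log2 fold change was -0.26 (SE 0.32, edgeR adjusted p = 0.516) in delayed repair at day 14 and -0.35 (SE 0.35, adjusted p = 0.438) at day 21. It was -0.23 (SE 0.32, edgeR adjusted p = 0.572) in immediate repair at day 14 and -0.69 (SE 0.30, adjusted p = 0.0602) at day 21. The last value was the nearest to a call: its interval ran between -1.31 and -0.07, and it passed in edgeR without immediate day 21 replicate 1, at -0.92 with an adjusted p of 0.0169. DESeq2 called it at -0.70 (adjusted p = 0.0398) and limma with quality weights at -0.76 (adjusted p = 0.0143), and limma also called immediate day 14, at -0.61 (adjusted p = 0.0432). Single libraries set the size of these values: without delayed day 21 replicate 3 or replicate 2 the delayed day 21 value was -0.92 or -0.075, and leaving out replicate 2 or replicate 4 of immediate day 14 gave -0.49 or -0.023, none of them called by edgeR.

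Gapdh fell steeply after day 7 in both repairs. Delayed repair at day 14 against day 7 differed by -2.13 on the log2 scale (SE 0.34, edgeR adjusted p = 0.000112), and at day 21 against day 7 by -2.22 (SE 0.38, adjusted p = 0.000317). Immediate repair gave -1.87 (SE 0.35, edgeR adjusted p = 0.0003) at day 14 against day 7 and -2.33 (SE 0.32, adjusted p = 8.36e-06) at day 21. Genes called lower made up 16.6% and 11% of all genes for delayed repair at days 14 and 21, and 14.3% and 18.6% for immediate repair. Groups did not overlap in any of these 4 comparisons; among all genes, 10.6% and 8.66% were lower with no overlap in delayed repair at days 14 and 21, and 10.9% and 11.4% in immediate repair. The fall of Gapdh was larger than that of all but 3.27% and 2.98% of genes in delayed repair and all but 2.92% and 2.07% in immediate repair.

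**Figure D2:**
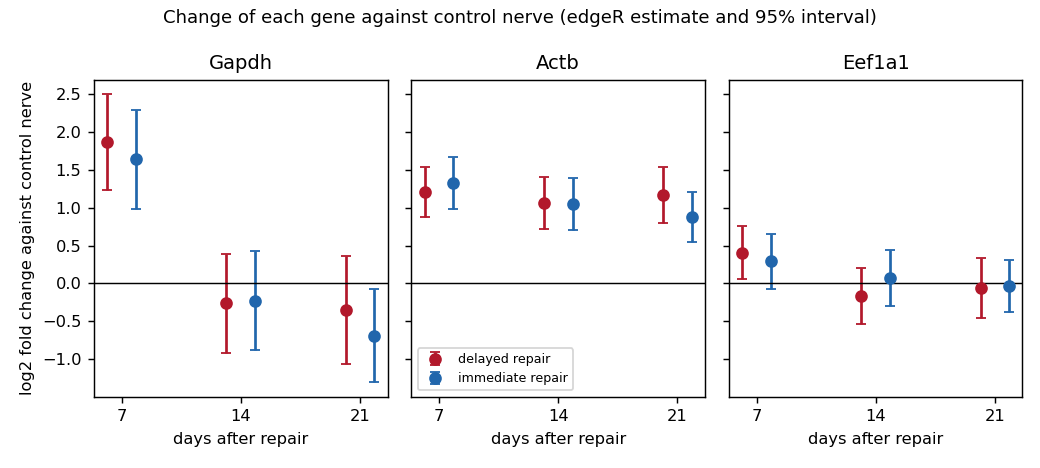
log2 fold change of each gene against control nerve (vertical axis) at days 7, 14 and 21 after repair (horizontal axis), with the edgeR estimate as a point and its 95% interval as a bar, delayed repair in red and immediate repair in blue. Gapdh is at 1.87 and 1.64 at day 7 and below 0 afterwards, Actb lies between 0.88 and 1.33 throughout, and Eef1a1 lies between -0.17 and 0.41.

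Actb was roughly 2-fold above its control level at every day after either repair. In delayed repair it stood at 4351, 4782, 5865, 5998 and 4337 CPM at day 7, at 5124, 4296, 4805 and 4082 CPM at day 14, and at 4363, 4580 and 5822 CPM at day 21. In immediate repair it stood at 5922, 6302, 4087 and 5698 CPM at day 7, at 3725, 5352, 5718 and 3344 CPM at day 14, and at 3649, 4041, 4411, 4780 and 3334 CPM at day 21. Control nerves held 2271, 2200, 2042, 2152 and 2315 CPM. All 25 repair libraries lay above all 5 control libraries, which differed little among themselves. The share of all genes that met this over all 25 was not counted. In single repair groups, 20.4% to 26.6% of all genes were higher than control nerve with no overlap.

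Group means of Actb, with SD, were 5067 ± 811 CPM in delayed repair at day 7 (n = 5), 4577 ± 474 at day 14 (n = 4) and 4922 ± 788 at day 21 (n = 3). They were 5502 ± 976 CPM in immediate repair at day 7 (n = 4), 4535 ± 1175 at day 14 (n = 4) and 4043 ± 578 at day 21 (n = 5), and 2196 ± 107 CPM in control nerve (n = 5). In order of mean, immediate day 7 stood highest, then delayed day 7, delayed day 21, delayed day 14, immediate day 14, immediate day 21 and control nerve. Each of the 6 repair groups overlapped its neighbour in that order, and none overlapped control nerve.

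Actb was called higher than in control nerve in all 6 comparisons, which share the 5 control libraries. In delayed repair it was 2.31-fold higher at day 7 (log2 1.21, SE 0.16, edgeR adjusted p = 4.61e-07), 2.08-fold at day 14 (1.06, SE 0.17, adjusted p = 9.66e-06) and 2.24-fold at day 21 (1.16, SE 0.18, adjusted p = 9.65e-06). In immediate repair it was 2.51-fold higher at day 7 (log2 1.33, SE 0.17, edgeR adjusted p = 2.23e-07), 2.07-fold at day 14 (1.05, SE 0.17, adjusted p = 1.17e-05) and 1.84-fold at day 21 (0.88, SE 0.16, adjusted p = 6.53e-05). Genes called higher made up 26.2% and 23.1% of all genes in delayed repair at days 14 and 21, and 26.1% and 24.8% in immediate repair. Genes higher with no overlap made up 22.1%, 26.6% and 26.3% of all genes in delayed repair at days 7, 14 and 21, and 24.3%, 24.6% and 20.4% in immediate repair. All 6 calls held in every other fit run on the whole library scale, with log2 fold changes between 0.81 and 1.44. On a library scale set by Gapdh, the day 7 values were -0.56 in delayed and -0.26 in immediate repair, not called.

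Between days Actb moved little beside the step from control nerve. Day 14 against day 7 gave a log2 fold change of -0.15 in delayed repair (edgeR adjusted p = 0.527) and -0.28 in immediate repair (adjusted p = 0.232). Day 21 against day 7 gave -0.04 in delayed repair (edgeR adjusted p = 0.887) and -0.44 in immediate repair (SE 0.17, adjusted p = 0.0343). The fall in immediate repair at day 21 was lost in 6 of the fits that left out 1 library, among them that without immediate day 7 replicate 2, which gave -0.37 with an edgeR adjusted p of 0.106.

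Eef1a1 was the steadiest of the 3 genes. It was at 10315, 9242, 6382, 7274 and 5204 CPM in delayed repair at day 7, at 5160, 4363, 5679 and 5436 CPM at day 14, and at 5757, 5355 and 5508 CPM at day 21. In immediate repair it was at 7450, 5906, 9432 and 5542 CPM at day 7, at 5555, 7218, 5728 and 5839 CPM at day 14, and at 5050, 5788, 6024, 6226 and 5250 CPM at day 21. Control nerves held 6827, 5611, 5636, 6041 and 4822 CPM. At day 7, 5 of 9 repair libraries lay above all control libraries, at day 14 there was 1 above and 1 below among 8, and at day 21 all 8 lay within the range of control nerve.

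Group means of Eef1a1, with SD, were 7684 ± 2084 CPM in delayed repair at day 7 (n = 5), 5159 ± 572 at day 14 (n = 4) and 5540 ± 203 at day 21 (n = 3). They were 7083 ± 1772 CPM in immediate repair at day 7 (n = 4), 6085 ± 764 at day 14 (n = 4) and 5668 ± 503 at day 21 (n = 5), and 5788 ± 730 CPM in control nerve (n = 5). In order of mean, delayed day 7 stood first, then immediate day 7, immediate day 14, control nerve, immediate day 21, delayed day 21 and delayed day 14. All neighbours in that order overlapped.

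Against control nerve, 1 of the 6 Eef1a1 comparisons was called: 1.33-fold higher in delayed repair at day 7 (log2 0.41, SE 0.17, edgeR adjusted p = 0.0362), where the groups overlapped. That call was lost without delayed day 7 replicate 1, at 0.28 with an edgeR adjusted p of 0.147, and likewise without delayed day 7 replicate 2 or without control replicate 2, 3 or 5. Immediate repair at day 7 gave 0.29 (SE 0.18, edgeR adjusted p = 0.153). At day 14 the log2 fold change was -0.17 (SE 0.18, edgeR adjusted p = 0.457) in delayed repair and 0.07 (SE 0.18, adjusted p = 0.760) in immediate repair, and at day 21 it was -0.06 (SE 0.19, adjusted p = 0.822) and -0.03 (SE 0.17, adjusted p = 0.899). The 95% intervals of all 6 comparisons lay within a 2-fold change. In each comparison taken singly this held for 31.4% to 41.0% of all genes. The share of genes that met it in all 6 was not counted. In all, 3 of the 3 genes were called higher than in control nerve in delayed day 7, where 31.5% of all genes were, and 2 of 3 in immediate day 7 (30.2% of all genes). Only Actb was called higher in delayed day 14 (26.2% of all genes), delayed day 21 (23.1%), immediate day 14 (26.1%) and immediate day 21 (24.8%).

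Eef1a1 fell after day 7 in delayed repair, by 0.57 on the log2 scale (SE 0.18, edgeR adjusted p = 0.0162) at day 14 against day 7, a call lost without delayed day 7 replicate 1 (-0.45, adjusted p = 0.0609) or delayed day 14 replicate 2 (-0.50, adjusted p = 0.0543). At day 21 against day 7 it was -0.47 (SE 0.20, edgeR adjusted p = 0.0764), and without delayed day 7 replicate 5 it was -0.58 (adjusted p = 0.0198). Immediate repair gave -0.22 (edgeR adjusted p = 0.388) at day 14 and -0.32 (adjusted p = 0.147) at day 21. Of the 3 genes, those called lower than at day 7 numbered 2 in delayed day 14, where 16.6% of all genes were called lower, and 1 in delayed day 21 (11% of all genes). They numbered 1 in immediate day 14 (14.3% of all genes) and 2 in immediate day 21 (18.6%).

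Delayed and immediate repair were not told apart by any of the 3 genes. Of 9 comparisons (3 genes at 3 days), edgeR called 0 after adjustment and 0 at an unadjusted p under 0.05, and DESeq2 and limma also called none. Log2 fold changes of delayed against immediate repair ran between -0.24 and 0.34, with edgeR adjusted p between 0.967 and 1.00. Among all genes, edgeR called 0.712% in either direction at day 7, 0% at day 14 (244 genes at an unadjusted p under 0.05) and 0.05% at day 21. DESeq2 called 3 genes higher and 5 lower at day 14, and limma with quality weights 1 higher and 1 lower.

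The intervals of those differences give what the data allow. For Gapdh, delayed against immediate repair gave 0.22 (95% interval -0.43 to 0.88) at day 7, -0.03 (-0.72 to 0.66) at day 14 and 0.34 (-0.36 to 1.04) at day 21. For Actb the values were -0.12 (-0.46 to 0.23), 0.01 (-0.35 to 0.38) and 0.28 (-0.09 to 0.66) at days 7, 14 and 21. For Eef1a1 they were 0.12 (-0.25 to 0.49), -0.24 (-0.62 to 0.15) and -0.03 (-0.43 to 0.37). A 2-fold difference lay outside 8 of the 9 intervals, the exception being Gapdh at day 21, while 54.8% to 59.6% of all genes had such intervals at the 3 days. The F test of repair by day gave an edgeR adjusted p of 1 for each gene; it called 0 of 16015 genes, with 951 at an unadjusted p under 0.05.

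The ratio of one gene's counts to another's within a library does not depend on how libraries are scaled. Gapdh to Actb was 1.12, 0.815, 0.398, 0.486 and 0.735 in delayed repair at day 7 and 0.482, 0.419, 0.979 and 0.401 in immediate repair at day 7, against 0.45, 0.38, 0.575, 0.382 and 0.373 in control nerve. At day 14 it was 0.182, 0.196, 0.164 and 0.144 in delayed repair and 0.145, 0.223, 0.183 and 0.129 in immediate repair. At day 21 it was 0.13, 0.0938 and 0.21 in delayed repair and 0.256, 0.126, 0.137, 0.115 and 0.0975 in immediate repair. All 8 libraries of day 14 and all 8 of day 21 were below all control libraries, and 4 of 9 at day 7 were above them.

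Gapdh to Eef1a1 separated day 7 from everything else. It was 0.473, 0.422, 0.366, 0.401 and 0.613 in delayed repair at day 7 and 0.383, 0.448, 0.424 and 0.412 in immediate repair at day 7, against 0.15, 0.149, 0.208, 0.136 and 0.179 in control nerve. All 9 day 7 libraries were above all control libraries. At days 14 and 21 the ratio ran down to 0.0619, in immediate day 21 replicate 5, and at day 21 it was below all control libraries in 6 of 8 libraries and above them in 1.

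Actb to Eef1a1 was higher in repair than in control nerve in most libraries. It was 0.422, 0.517, 0.919, 0.825 and 0.833 in delayed repair at day 7 and 0.795, 1.07, 0.433 and 1.03 in immediate repair at day 7, against 0.333, 0.392, 0.362, 0.356 and 0.48 in control nerve. The low values at day 7 came from delayed replicates 1 and 2 and immediate replicate 3, which were also the libraries with the highest CPM of Gapdh and Eef1a1 in their groups. All 8 repair libraries of day 14 and all 8 of day 21 were above all control libraries.

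**Figure D3:**
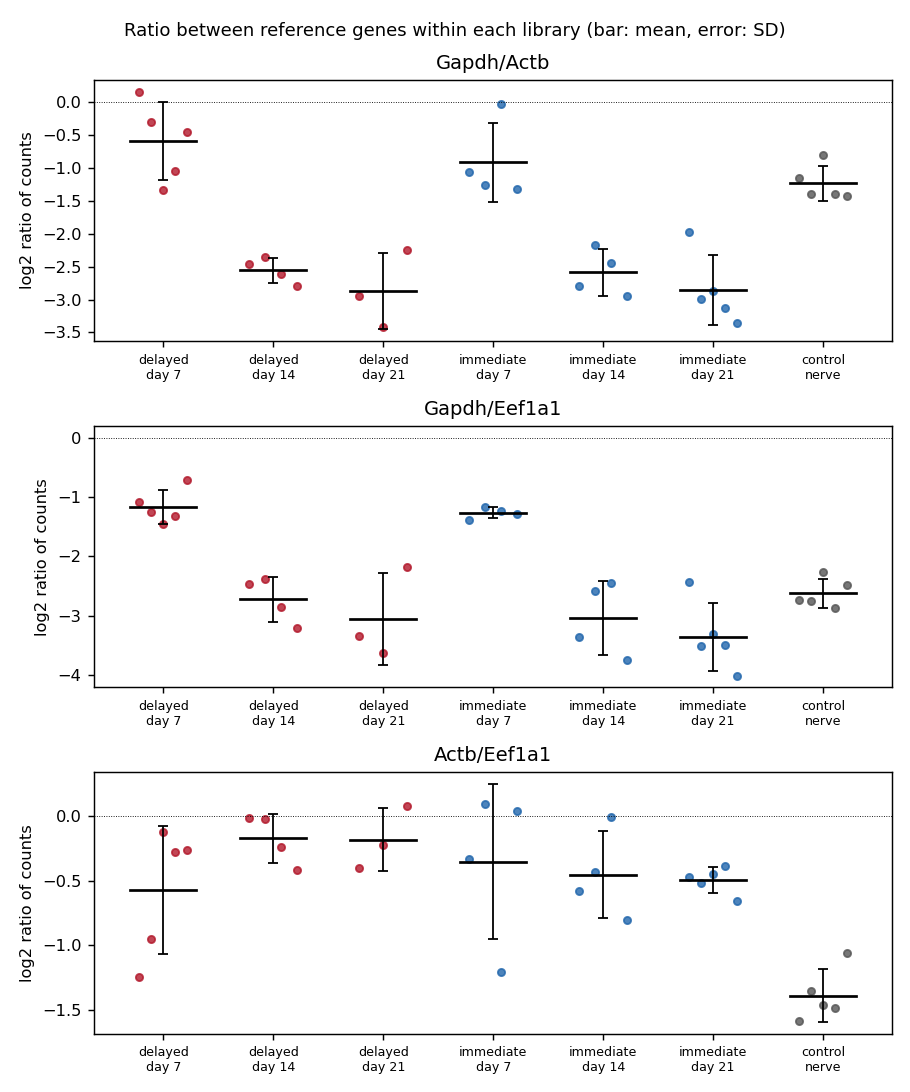
log2 ratio of counts within each library for Gapdh to Actb, Gapdh to Eef1a1 and Actb to Eef1a1 (vertical axes) in the 7 groups, with a point per library, a bar for the mean and an error bar for the SD. Gapdh to Eef1a1 at day 7 lies above every control library in 9 of 9 libraries, and Gapdh to Actb at days 14 and 21 lies below every control library.

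Of 33 ratio comparisons, 11 passed two-sided exact permutation tests after Benjamini-Hochberg adjustment, all at the same adjusted p of 0.0476. These calls lay close to the threshold. As differences of medians all 11 were lost, at an exact permutation adjusted p of 0.121. That form could not pass here, because several arrangements tie on the median even for fully separated groups. Its loss therefore says nothing about the calls. Of the 11, 9 were lost in most or all fits without 1 library, at adjusted p between 0.0524 and 0.0786, where fewer libraries also leave fewer arrangements to the exact permutation test. Calls from 4 against 5 libraries could not pass this test with 1 library fewer. The 2 that held in all fits, Gapdh to Actb and Actb to Eef1a1 in immediate day 21 against control nerve, compared 5 with 5. Gapdh to Eef1a1 and Actb to Eef1a1 in delayed day 7 against control nerve, also 5 with 5, were lost in 8 of 10 fits. For Gapdh to Eef1a1 these groups did not overlap, so every such fit gave the smallest exact permutation p of 4 against 5, 0.0159. Its adjusted p then depended on the p of the other ratios, so that loss does not show an overlap or a smaller difference. Gapdh to Eef1a1 in immediate day 21 against control nerve, not among the 11, passed the exact permutation test without immediate day 21 replicate 1 (-0.96, adjusted p = 0.0437). The log2 ratio of Gapdh to Eef1a1 was higher than in control nerve by 1.46 in delayed repair at day 7 and by 1.36 in immediate repair at day 7. The log2 ratio of Gapdh to Actb differed from control nerve by -1.32 in delayed repair at day 14, by -1.35 in immediate repair at day 14 and by -1.63 in immediate repair at day 21. The log2 ratio of Actb to Eef1a1 was above control nerve by 0.82 and 1.22 in delayed repair at days 7 and 14, and by 0.94 and 0.90 in immediate repair at days 14 and 21. The other 2 calls were immediate repair at day 21 against day 7, where Gapdh fell by 1.95 relative to Actb and by 2.09 relative to Eef1a1 on the log2 scale.

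Delayed repair at day 21 had 3 libraries, and 3 against 5 cannot go below an exact permutation p of 0.0357, or 0.0737 after adjustment here. Its log2 differences from control nerve were -1.64 for Gapdh to Actb, -0.43 for Gapdh to Eef1a1 and 1.21 for Actb to Eef1a1. For delayed against immediate repair, 0 of 9 ratio differences passed the exact permutation tests, with adjusted p between 0.124 and 0.943 and differences between -0.22 and 0.33 on the log2 scale.

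A reference gene sets the scale for all others, so the test across all genes was repeated with each gene's count as the library scale, leaving the scaling gene out of the count. On the TMM scale, delayed repair at day 7 against control nerve gave 5044 genes higher and 5265 lower. With Gapdh as the scale it gave 1284 higher and 12024 lower, with Actb 1917 and 10832, with Eef1a1 3206 and 6084, and with the geometric mean of the 3 genes 1989 and 10659. Immediate repair at day 7 gave 4829 higher and 5609 lower on the TMM scale, 1404 and 11459 on Gapdh, 1797 and 11158 on Actb, and 3401 and 6043 on Eef1a1. The median log2 fold change of all genes in delayed repair at day 7 was -0.01 on the TMM scale, -1.81 on Gapdh and -0.34 on Eef1a1.

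At day 21 the Gapdh and Actb scales pulled in opposite directions. In immediate repair against control nerve, 3978 genes were higher and 3658 lower on the TMM scale, 6981 and 813 on Gapdh, 1668 and 9356 on Actb, and 3318 and 2716 on Eef1a1. In delayed repair against control nerve, 3697 were higher and 3399 lower on the TMM scale, 4031 and 811 on Gapdh, 1357 and 10004 on Actb, and 3162 and 2294 on Eef1a1. The median log2 fold change of all genes was 0.85 for immediate repair on the Gapdh scale and -1.14 for delayed repair on the Actb scale. For day 21 against day 7, the Gapdh scale gave 14263 genes higher and 68 lower in delayed repair and 14541 higher and 41 lower in immediate repair, against 2423 and 1756, and 3929 and 2973, on the TMM scale.

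Scaling by one of the genes also changed what the others did, and at day 7 it turned the direction of some. On the Gapdh scale, Actb against control nerve was -0.56 in delayed day 7 (edgeR adjusted p = 0.0772) and -0.26 in immediate day 7 (adjusted p = 0.452) on the log2 scale, with no call. Eef1a1 on the Gapdh scale was called lower, at -1.46 in delayed day 7 (edgeR adjusted p = 6.03e-05) and -1.37 in immediate day 7 (adjusted p = 0.000324). So were 12024 and 11459 of 16015 genes. On the Actb scale, Gapdh was 0.72 in delayed day 7 (edgeR adjusted p = 0.0309) and 0.40 in immediate day 7 (adjusted p = 0.240). Eef1a1 on the Actb scale was called lower than in control nerve in all 6 comparisons, between -1.22 and -0.76. In each of the 6, between 9356 and 11158 of 16015 genes were called lower on that scale. The median log2 fold changes of all genes ran between -1.36 and -0.84. On the Eef1a1 scale, Gapdh stayed higher at day 7, at 1.47 in delayed and 1.34 in immediate repair. Actb stayed higher on that scale in all 6 comparisons, between 0.87 and 1.22. Genes called higher there numbered between 3162 and 4232 of 16015 in each comparison. On the geometric mean of the 3 genes, Eef1a1 was called higher in delayed day 14 than in delayed day 7 (0.39, edgeR adjusted p = 0.0359), and Actb was called higher in immediate day 21 than in immediate day 7 (0.57, adjusted p = 0.00369). On the TMM scale both of those comparisons were called lower. On the geometric mean, 10351 of 16015 genes were called higher in delayed day 14 against day 7, with a median log2 fold change of 0.89. In immediate day 21 against day 7 they numbered 11340, with a median of 1.11. The Eef1a1 and Actb values lay below these medians.

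**Figure D4:**
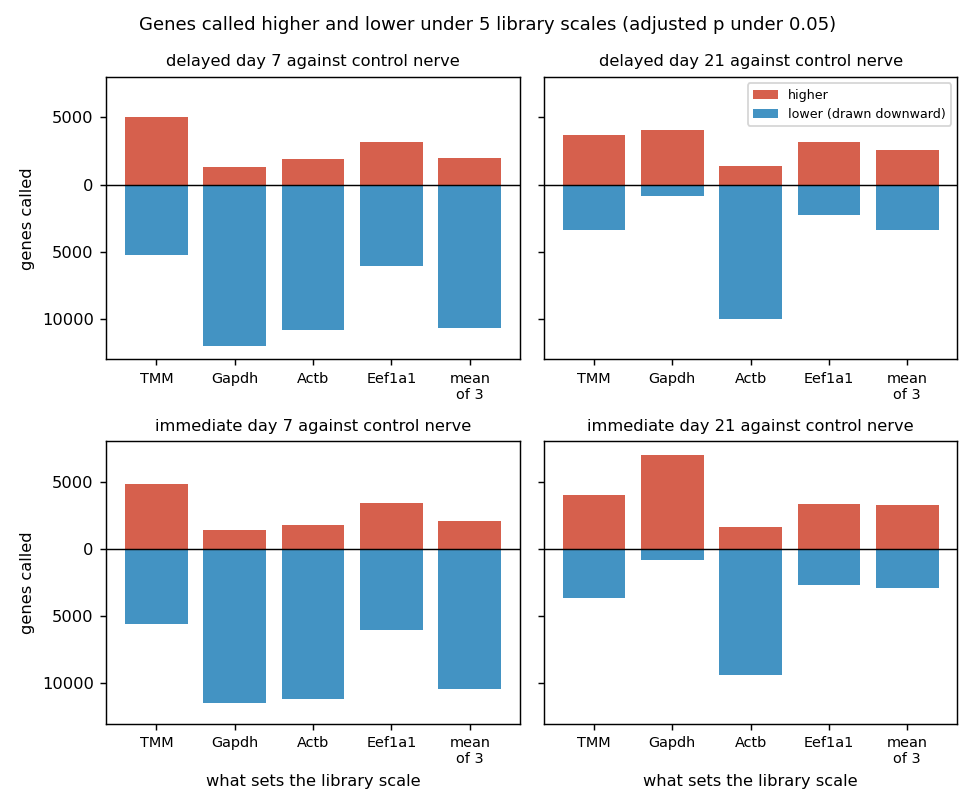
Genes called higher (bars upward) and lower (bars downward) in 4 comparisons of repair with control nerve, with the library scale set by TMM, by each gene or by the geometric mean of the 3 (horizontal axis). In delayed repair at day 21 the Gapdh scale gives 4031 genes higher and 811 lower, and the Actb scale gives 1357 higher and 10004 lower.

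Set beside all genes tested, the spread of the 3 genes ran in the order seen above. The SD of log2 CPM over the 30 libraries was 1.10 for Gapdh, 0.48 for Actb and 0.28 for Eef1a1, against a median of 0.64 over all genes. By that measure 70.1% of genes were steadier than Gapdh, 39.3% steadier than Actb and 17.4% steadier than Eef1a1. The SD of the 7 group means was 1.05, 0.44 and 0.19 for Gapdh, Actb and Eef1a1, and the SD within groups was 0.48, 0.23 and 0.24, beside a median within groups of 0.41 over all genes. For Gapdh and Actb the SD between groups was larger than that within groups, and for Eef1a1 it was smaller. Among the 41 genes at or above the mean level of Gapdh, 28 had a lower SD than Gapdh, 10 a lower SD than Actb and 2 a lower SD than Eef1a1.

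**Figure D5:**
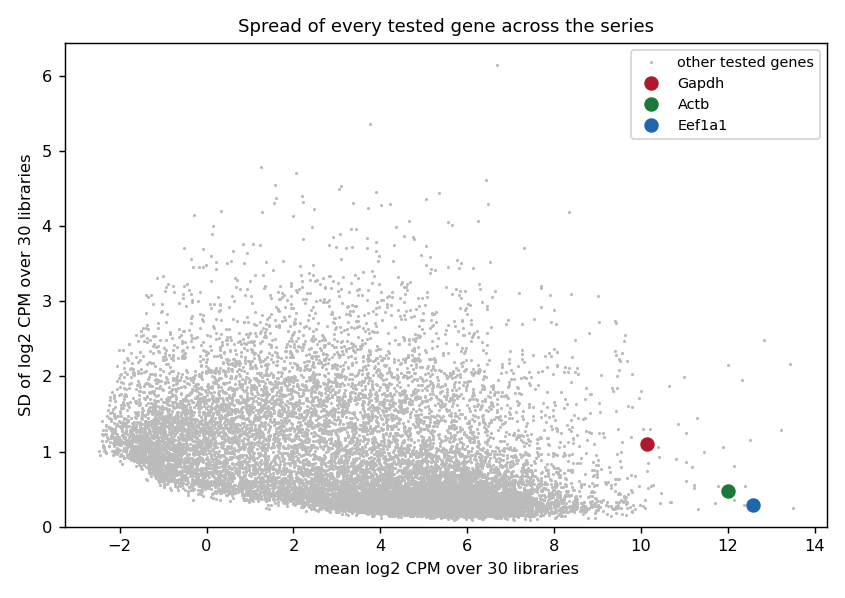
SD of log2 CPM over the 30 libraries (vertical axis) against mean log2 CPM (horizontal axis) for every gene tested, with the 3 reference genes in colour. Gapdh has an SD of 1.10, Actb of 0.48 and Eef1a1 of 0.28.

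No pair of the genes kept a steady ratio over the 30 libraries. The SD of the log2 ratio was 1.03 for Gapdh to Actb, 0.94 for Gapdh to Eef1a1 and 0.51 for Actb to Eef1a1, and the ratios spanned 11.9-fold, 9.89-fold and 3.21-fold. Averaged over the other 2 genes, as pairwise stability measures do, the SD was 0.99 for Gapdh, 0.77 for Actb and 0.73 for Eef1a1.

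The gene most like each of the 3 was taken as that with the smallest SD of the log2 CPM ratio over the 30 libraries, among the 12472 genes whose mean log2 CPM reached 1. For Gapdh it was ENSRNOG00000050630, with an SD of 0.11 beside a median of 1.20 over the genes compared. Its mean was 818, 196 and 185 CPM in delayed repair at days 7, 14 and 21 and 692, 211 and 145 CPM in immediate repair, against 226 CPM in control nerve. For Actb it was ENSRNOG00000020623, with an SD of 0.17 beside a median of 0.69. For Eef1a1 it was ENSRNOG00000029996, with an SD of 0.047 beside a median of 0.56, and its mean was 264, 174 and 183 CPM in delayed repair at days 7, 14 and 21 and 243, 211 and 197 CPM in immediate repair, against 195 CPM in control nerve. The files pair no names with these identifiers, and whether they share reads with the reference genes was not tested.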

How the data were processed

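RNA sequencing of 30 libraries was used as raw read counts per gene, deposited by the authors in 1 table of the series. Poly-T capture from 400 ng of RNA gave libraries that were not strand-specific, per the labels' protocols. DESeq2 1.38.3, featureCounts 1.5.0-p3 and HISAT2 2.0.5 are named in the submitters' processing notes, which give them no role. Of the genome build, the annotation and the counting of reads shared between near-identical genes, each is not given in the sources used. Samples were grouped and numbered as labelled.

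The count test was that of edgeR 4.0.16 in R 4.3.3. Genes of low count were removed with filterByExpr by group, leaving 16015 (49.2%). TMM factors lay between 0.876 and 1.14. The quasi-likelihood test with robust estimation was fitted to 7 groups together, adjusted by Benjamini-Hochberg over all genes, with a threshold of 0.05. CPM values used TMM-scaled totals, and log2 CPM a prior count of 2. SE and 95% intervals came from the test statistic. Ratios of raw counts were compared by exact permutation, two-sided, with p adjusted over 33 such tests. No pair among 51 pairs of replicates was identical, and none agreed within sampling noise (chi-square over its degrees of freedom at least 14.9).

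The test was run on simulated counts in which 100 genes differed 2-fold and another 100 differed 4-fold. All other genes had the same mean in every group, whereas edgeR called 7096 to 10438 of 16015 genes in repair against control nerve. The runs therefore do not show how the test performs where most genes shift. Delayed day 7 against immediate day 7 (15691 genes) gave 48 and 88 calls with 8 false. Delayed day 7 against control nerve (15702 genes) gave 55 and 85 with 2 false, and delayed day 21 against control nerve (15703 genes) gave 44 and 81 with 6 false. Alternatives were DESeq2 1.42.0, limma 3.58.1 voom with quality weights, other scalings, no filter, a replicate block, a fit of only the groups compared, differences of medians, leaving out each library, and, added after seeing the data, leaving out delayed day 7 replicate 5 with immediate day 21 replicate 4. Immediate day 7 replicate 4 (1.32) and delayed day 7 replicate 1 (1.16) lay further from their groups than immediate day 21 replicate 4 (1.10), yet were kept in that fit.

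The 3 genes, the lists and the alternatives were chosen with earlier results of these data known. The genes named were the 3 and, for each, the 1 whose ratio to it had the smallest SD. Lists fixed by symbol (other reference genes, glycolysis, actins, elongation factors and cell type markers) were not tested, because the tables used here pair no symbols with the file's identifiers. The labelled tissue was therefore not checked against markers.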

Additional observations from a re-analysis of the deposited data

Results flagged for a closer look

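In immediate repair at day 14, Eef1a1 of replicate 2 stood apart at 7218 CPM, against 5555, 5728 and 5839 CPM in the other replicates. Its gap was 0.83 of the range of the group. It was 1 of 36 sets of values checked this way, and chance gives about 1 in 20.

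The effect against control nerve differed between days by a test of the difference in 8 cases. For Gapdh the difference on the log2 scale was -2.13 for day 14 against day 7 and -2.22 for day 21 against day 7 in delayed repair, and -1.87 and -2.33 in immediate repair. For Eef1a1 it was -0.57 for day 14 against day 7 in delayed repair, and for Actb it was -0.44 for day 21 against day 7 in immediate repair. In immediate repair at day 21 against day 7, the log2 ratio of Gapdh to Actb differed by -1.95 and that of Gapdh to Eef1a1 by -2.09.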

How the results depend on the processing

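The day 7 calls of Gapdh against control nerve, its 4 falls after day 7 and the 6 Actb calls against control nerve held under every alternative run other than the scales set by the genes themselves. The cause of each change listed here was not tested, except that fewer libraries leave fewer arrangements to the exact permutation tests. Medians also leave ties between arrangements, and the adjusted p of a ratio depends on the p of the others. The replicate numbers were not treated as pairs, because in most comparisons the same-numbered libraries did not all deviate together (correlations between -0.66 and 0.41). The exception was delayed day 14 against immediate day 14, where all correlations were positive, between 0.084 and 0.41 over 4 shared numbers. With the replicate block, edgeR gave -0.72 for Gapdh in immediate day 21 against control nerve (adjusted p = 0.0363, now called), -0.55 for Eef1a1 in delayed day 21 against day 7 (0.0432, now called) and -0.42 for Actb in immediate day 21 against day 7 (0.0606, lost). A block left the exact permutation tests of ratios unable to reach the threshold, with a smallest p between 0.0625 and 0.25.

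The fall of Actb in immediate day 21 against day 7 was also lost with upper-quartile factors (-0.40, edgeR adjusted p = 0.0559), raw totals (-0.26, 0.236) and only the groups compared (-0.46, 0.102). The fall of Eef1a1 in delayed day 14 against day 7 was lost with raw totals (-0.42, edgeR adjusted p = 0.0773) and only the groups compared (-0.57, 0.111), and its rise in delayed day 7 against control nerve with only the groups compared (0.49, 0.0609). The F of Eef1a1 over all groups was 2.31 (edgeR adjusted p = 0.0846) with upper-quartile factors and 1.57 (0.227) with raw totals. Gapdh in immediate day 21 against control nerve was called with only the groups compared (-0.65, edgeR adjusted p = 0.0378), DESeq2 (-0.70, 0.0398) and limma (-0.76, 0.0143). Eef1a1 in delayed day 21 against day 7 was called with DESeq2 (-0.48, adjusted p = 0.0358) and with replicate 5 of delayed day 7 left out together with replicate 4 of immediate day 21 (-0.58, edgeR adjusted p = 0.0193). With limma, Gapdh in immediate day 14 against control nerve (-0.61, adjusted p = 0.0432) and Actb in immediate day 14 against day 7 (-0.51, 0.0153) were called.

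Sign changes came in 33 cases over 13 results, none of them called on either side. Eef1a1 in immediate day 21 against control nerve was 0.023 with upper-quartile factors, 0.16 with raw totals, 0.021 with no filter and 0.0073 with only the groups compared. Raw totals gave 0.015 for Eef1a1 in delayed day 21 against control nerve and 0.034 for Actb in delayed day 21 against day 7. For delayed against immediate repair, no filter gave -0.0012 for Actb at day 14, limma gave 0.28 for Gapdh at day 14 and 0.0083 for Eef1a1 at day 21, and leaving out both libraries gave 0.0030 for Eef1a1 at day 21. Differences of medians gave 0.047 for the log2 ratio of Gapdh to Actb in delayed against immediate repair at day 21 and 0.081 for Gapdh to Eef1a1 in delayed day 14 against control nerve.

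Tested as differences of medians, the 11 called ratios all had an exact permutation adjusted p of 0.121, and ties between arrangements left that test unable to pass. Against control nerve the values were 1.49 and 1.48 for Gapdh to Eef1a1 in delayed and immediate day 7, -1.14, -1.23 and -1.60 for Gapdh to Actb in delayed day 14, immediate day 14 and immediate day 21, and 1.19, 1.33, 0.96 and 1.00 for Actb to Eef1a1 in delayed days 7 and 14 and immediate days 14 and 21. In immediate day 21 against day 7 they were -1.83 for Gapdh to Actb and -2.24 for Gapdh to Eef1a1.

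Leaving out 1 library at a time, log2 fold changes against control nerve ran between 0.28 and 0.52 for Eef1a1 in delayed day 7, -0.12 and 0.0026 in delayed day 21, -0.020 and 0.15 in immediate day 14, -0.090 and 0.036 in immediate day 21, -0.92 and -0.075 for Gapdh in delayed day 21, -0.49 and -0.023 in immediate day 14, and -0.92 and -0.54 in immediate day 21. Against day 7 they ran between -0.69 and -0.45 for Eef1a1 in delayed day 14, -0.58 and -0.34 in delayed day 21, -0.18 and 0.040 for Actb in delayed day 21, and -0.56 and -0.37 in immediate day 21. For delayed against immediate repair they ran between -0.011 and 0.29 for Eef1a1 at day 7, -0.072 and 0.0028 at day 21, -0.11 and 0.14 for Actb at day 14, -0.24 and 0.23 for Gapdh at day 14, and -0.23 and 0.62 at day 21. The F of Eef1a1 over all groups ran between 1.96 and 3.97.

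Without 1 library, 9 of the 11 ratio calls were lost in 8 or more of the 9 or 10 fits each. Those from 4 against 5 libraries could not pass with 1 library fewer. Gapdh to Eef1a1 in delayed day 7 against control nerve stayed at the smallest exact p in every fit, and its loss came through the adjustment. Log2 ratios without 1 library ran, against control nerve, between 1.35 and 1.55 for Gapdh to Eef1a1 in delayed day 7, -0.22 and 0.058 in delayed day 14, 1.29 and 1.45 in immediate day 7, and -0.96 and -0.57 in immediate day 21. For Gapdh to Actb they ran between -1.39 and -1.21 in delayed day 14 and -1.50 and -1.23 in immediate day 14. For Actb to Eef1a1 they ran between 0.71 and 0.99 in delayed day 7, 1.16 and 1.30 in delayed day 14, and 0.79 and 1.05 in immediate day 14. In immediate day 21 against day 7 they ran between -2.17 and -1.65 for Gapdh to Actb, -2.32 and -1.93 for Gapdh to Eef1a1, and -0.43 and 0.0045 for Actb to Eef1a1, and in delayed against immediate day 7 between -0.0089 and 0.18 for Gapdh to Eef1a1.

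Counts of genes called moved with the scale, the filter and the tool. For delayed against immediate repair, the 114 genes at day 7 became 15 with relative log expression factors, 7 with no filter, 6 on the Eef1a1 scale and 0 on the Gapdh scale (974 at an unadjusted p under 0.05 with edgeR) and on the geometric mean (1215). The 8 at day 21 became 3 on the Eef1a1 scale and 0 with raw totals (1292) and on the Gapdh (378), Actb (1834) and geometric mean (884) scales. With no filter, edgeR gave 0 at both days on all 4 of these scales, with 1372 to 1757 genes at day 7 and 686 to 2016 at day 21 at an unadjusted p under 0.05, and on the TMM scale 0 at day 21 (1169). DESeq2 called 341 genes at day 7 and 60 at day 21, and limma 0 (267) and 58. Leaving out replicate 5 of delayed day 7 and replicate 4 of immediate day 21 gave 1 at day 7 and 11 at day 21. On the Gapdh scale, 4945 genes in delayed day 14 and 5452 in immediate day 14 were called against control nerve, and 14165, 14331, 13902 and 14582 against day 7 in delayed days 14 and 21 and immediate days 14 and 21. With no filter the Gapdh scale gave 4865, 4509 and 5283 in delayed day 14, delayed day 21 and immediate day 14 against control nerve, and 15571, 15636, 14872 and 16584 against day 7. The Actb scale gave 11361 in delayed day 21 against control nerve (11586 with no filter), and 3460 and 2512 in delayed days 14 and 21 against day 7 with no filter. The geometric mean gave 10755, 10636, 10310 and 11814 against day 7, and 10783, 10503, 10049 and 12096 with no filter. Raw totals raised the share of calls that were higher to 66.1% in immediate day 21 against control nerve, against 52.1% on the TMM scale, to 67.1% in delayed day 14 against day 7 (52.1%), to 70.9% in immediate day 14 against day 7 (57.7%) and to 71.9% in immediate day 21 against day 7 (56.9%), and moved the median log2 fold change of all genes by up to 0.19 (immediate day 21 against day 7).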

Other observations

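Within groups the genes also differed in how closely replicates agreed. Actb in control nerve had an SD of log2 CPM of 0.07 (n = 5), beside a median of 0.22 over all genes in those libraries. Eef1a1 in delayed repair at day 21 had an SD of 0.05 (n = 3), beside a median of 0.28. Gapdh had an SD of 0.78 in delayed repair at day 21 (n = 3) and 0.72 in immediate repair at day 14 (n = 4), beside medians of 0.28 and 0.32, and 0.22 in control nerve, beside a median of 0.22.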
